A study of Homo sapiens with 21 samples.

Results

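The baseline transcriptomes of FADU and BFTC909 were compared gene by gene. FADU is a squamous carcinoma line of the hypopharynx, a head and neck site, and BFTC909 is a carcinoma line of the renal pelvis, in the upper urinary tract. Both served as models in a study of METTL4, a DNA adenine methyltransferase, in cells grown at low oxygen. The 4 libraries compared came from cells that carried the scrambled control siRNA (Scr-si) and were kept at 18% O2 (normoxia) for 18 h, with 2 libraries per line. The same control cells kept at 1% O2 (hypoxia) for 18 h gave 2 further libraries per line, which were used to look at the line difference a second time. No METTL4 knockdown library entered the main comparison. The labels call both lines tumour cell lines without giving a passage or a clone, and nothing in them says that the replicates were separate cultures, so that p-values measure the spread between these libraries, which may be technical. The growth note of the BFTC909 samples names the FADU medium, DMEM with serum, and the medium of BFTC909 was therefore read from no label of its own.

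Of the 20811 genes listed in the table of at least 1 line, 15926 (76.5%) were listed for both, and these are the genes compared. Each library was rescaled to a sum of 1000000 over them, and a value below is always a read count on this scale, with replicate 1 given first and replicate 2 second. The FADU table alone held 3579 genes and the BFTC909 table alone held 1306. The FADU libraries held 24864024 and 23410675 reads on genes and the BFTC909 libraries 22577420 and 24126269, so that 1 read was worth between 0.0411 and 0.0447. A gene absent from a table had stayed below 10 reads (FADU) or 9 reads (BFTC909) in at least 5 of the 6 libraries of that table, so its level there is bounded and not measured. The compared libraries of a line come from a table of that line alone, so that line and table, with any difference in culture or preparation, cannot be told apart. In bulk RNA, fewer cells of a kind and less RNA per cell cannot be told apart either.

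Squamous epithelium rests on basal cells that make keratins 5 and 14, hold together through desmosomes, attach to the basement membrane through hemidesmosomes and depend on the transcription factor p63 (TP63). Urothelium is an epithelium too, marked by uroplakins, keratin 20, GATA3 and FOXA1, and the nearby renal tubule by PAX8. Carcinoma cells can lose epithelial junctions and gain vimentin, fibronectin and collagens, a state called mesenchymal, in which ZEB1 and ZEB2 repress epithelial genes. The microRNAs of the miR-200 family and miR-205 are in turn known to repress ZEB1 and ZEB2.

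The host transcripts from which these microRNAs are cut were counted here, while the mature microRNAs were not. Mature sequences are shown, 5′ to 3′ from RefSeq (GRCh38.p14), for a chosen few of the hosts that separated the lines. The seed (bases 2 to 8, which pair with targets) is in capitals.
hsa-miR-205-5p: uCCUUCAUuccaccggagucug
hsa-miR-200c-3p: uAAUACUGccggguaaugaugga
hsa-miR-141-3p: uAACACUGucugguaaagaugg
hsa-miR-31-5p: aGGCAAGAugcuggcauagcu
hsa-let-7b-5p: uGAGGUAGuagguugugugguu
hsa-let-7a-5p: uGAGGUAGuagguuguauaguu
hsa-miR-221-3p: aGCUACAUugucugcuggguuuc
hsa-miR-222-3p: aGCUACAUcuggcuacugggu
The seeds of miR-200c and miR-141 differ, those of let-7a and let-7b are the same, and so are those of miR-221 and miR-222.

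MIR205HG, the host of miR-205 (hg19, chr1:209602162-209606193), stood at 488 and 494 in FADU and was absent from the BFTC909 table. MIR200CHG, beside miR-200c and miR-141 (chr12:7072389-7073610), gave only 2.59 and 2.79 in FADU and was absent from BFTC909 too. MIR31HG (chr9:21380072-21559890) stood at 7.19 and 6.45 and was likewise listed for FADU alone. All 3 hosts of miR-205, miR-200c with miR-141 and miR-31 were therefore recorded for 1 line only, at levels that spanned a wide range. The let-7 host MIRLET7BHG (chr22:46449749-46509808) was measured in both lines, at 176 and 172 in FADU and 34 and 31.6 in BFTC909. Its log2 difference was 2.37 ± 0.050 (adjusted p = 6.04e-10, limma with Benjamini-Hochberg adjustment). In the other direction, MIR222HG, the host of miR-221 and miR-222 (chrX:45604638-45629677), stood at 23.2 and 25.6 in FADU and 55.8 and 52.3 in BFTC909, a difference of -1.12 ± 0.067 (adjusted p = 4.05e-07, limma, Benjamini-Hochberg). In hypoxia the same host stood at 28.6 and 25.7 in FADU and 16.4 and 15.9 in BFTC909, the opposite order of the lines. The difference in normoxia minus that in hypoxia was -1.83 (adjusted p = 2.32e-08, limma interaction over the 8 normoxia and hypoxia libraries, Benjamini-Hochberg). Of 27 microRNA host genes tested, 9 were higher in FADU and 5 in BFTC909, against 19.1% and 12.2% of all tested genes. A further 10 were listed for FADU only and 6 for BFTC909 only.

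Across all genes the lines were far apart. Genes were tested when they reached a value of 1 in 2 or more of the 4 libraries. Of these 14341 genes, 2733 were higher in FADU (19.1%) and 1748 in BFTC909 (12.2%), each by at least 2-fold on the log2(value + 1) scale at an adjusted p under 0.05 (limma, Benjamini-Hochberg). "Higher" and "lower" below mean such a call, and differences are log2, FADU minus BFTC909, with their standard error. Counts of calls within a group of genes are to be read against these shares of 19.1% and 12.2%. At 4-fold or more, 771 genes were higher in FADU and 645 in BFTC909, at 16-fold 121 and 155, and at 64-fold 25 and 23. At any size of difference, 11892 genes (82.9%) had an adjusted p under 0.05 in limma, and in 13092 (91.3%) the libraries of the lines did not overlap. Across the tested genes the log2 values correlated at 0.994 between the FADU replicates, at 0.998 between the BFTC909 replicates and at 0.827 to 0.830 between lines, a description only, since genes are not replicates.

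**Figure D1:**
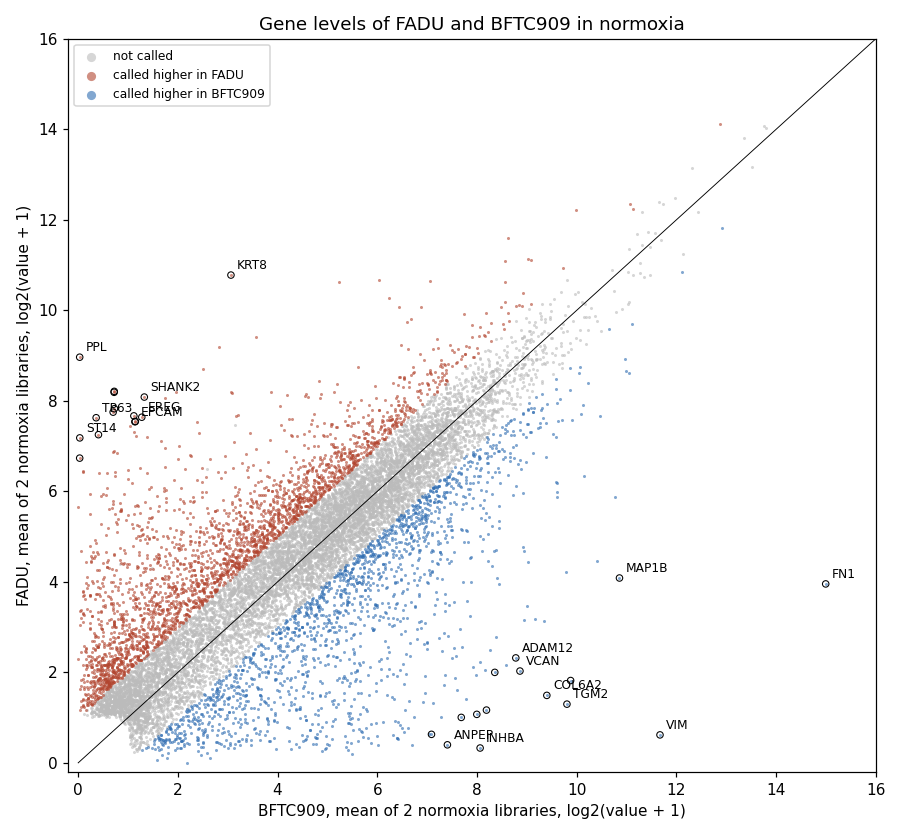
Mean log2(value + 1) of each tested gene in the 2 BFTC909 libraries (x axis) and the 2 FADU libraries (y axis), in normoxia, with called genes coloured by the line in which they were higher. The coloured points lie on both sides of the diagonal, 2733 above it and 1748 below it, and circles mark the genes with the largest differences, such as KRT8, PPL, FN1 and VIM.

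The split varied with the scale. FN1 alone took 3.23% and 3.31% of the reads on shared genes in BFTC909, the largest share of any gene there, and less than 0.01% in FADU. The median difference of all tested genes was 0.19, and with TMM factors, another way to set the scale, it was 0.01 with 2183 genes higher in FADU and 2180 in BFTC909. The share of calls that were higher in FADU thus went from 61.0% to 50% under TMM and to 53.2% when each library was centred on its median. Differences are best read against the median of 0.19.

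The hypoxia libraries, which the normoxia contrast did not use, gave 2715 genes higher in FADU (18.9%) and 1678 in BFTC909 (11.7%). Of the normoxia calls higher in FADU, 2076 (76.0%) were called so in hypoxia, and these made up 76.5% of the hypoxia calls. For BFTC909 the number was 1306, 74.7% of the normoxia and 77.8% of the hypoxia calls. A set of 10 genes was called in opposite directions, among them CLDN1, UCA1 and VEGFA, which are described with their groups.

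Most keratins recorded for either line were higher in FADU or listed there only. Keratins are the intermediate filaments of epithelial cells, paired as a basic and an acidic chain. KRT5, the basic keratin of basal cells, stood at 2786 and 2515 in FADU and was absent from BFTC909. Its acidic partner KRT14 stood at 180.1 and 162, KRT15 at 127 and 116, KRT17 at 159 and 153 and KRT6A at 37.5 and 32.6, all listed for FADU alone. Of 22 keratins of stratified epithelia, 11 were listed only for FADU, 1 (KRT79, 4.34 and 3.14) only for BFTC909, 8 for neither line, and the 2 tested ones, KRT10 and KRT80, were not called. The simple keratins followed the same order. KRT8 stood at 1888 and 1626 in FADU and 7.2 and 7.53 in BFTC909, a difference of 7.71 ± 0.067 (adjusted p = 7.94e-12, limma, Benjamini-Hochberg). KRT18, its partner, stood at 1318 and 1163 in FADU and 76.2 and 73.2 in BFTC909, a difference of 4.03 ± 0.059. BFTC909 thus had some KRT18 with little KRT8, and KRT7 (23.7 and 21.8) and KRT19 (624 and 552) were listed for FADU only. Per kilobase of exon, KRT5 had a level of 641 and KRT8 of 255 in FADU. KRT14, KRT16, KRT17 and KRT6A have near-identical copies, so that reads could be split or lost among them.

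The cell junctions went with the keratins. E-cadherin (CDH1), the main adhesion molecule of epithelia, stood at 250.0 and 207 in FADU and P-cadherin (CDH3) at 218 and 209, and neither was listed for BFTC909. EPCAM, the epithelial cell adhesion molecule, stood at 177 and 193 in FADU and 0.894 and 1.51 in BFTC909 (difference 6.41 ± 0.12). The tight junction claudins CLDN4 and CLDN7 stood at 38.3 and 37 in FADU and 0.402 and 0.335 in BFTC909, and at 84.3 and 82.9 in FADU and 0.536 and 0.46 in BFTC909. ST14, the membrane protease matriptase, stood at 149.6 and 139 in FADU against 1 and 0 reads in BFTC909. MAL2, which carries proteins to the apical side, stood at 182 and 189 in FADU and 1.3 and 1.13 in BFTC909. Of 16 junction genes tested, 13 were higher in FADU and 1 in BFTC909, with a median difference of 3.66 against 0.19 over all tested genes, and 12 more were listed for FADU only. The exception was CLDN1, at 46.9 and 47.5 in FADU and 117 and 118 in BFTC909. In hypoxia CLDN1 stood at 73.5 and 95.3 in FADU and 29.4 and 29.7 in BFTC909, the reverse order (normoxia minus hypoxia -2.77, adjusted p = 1.54e-09, limma interaction, Benjamini-Hochberg). The scaffold gene TJP1 (222 and 219 in FADU and 244 and 242 in BFTC909) of the tight junction plaque was not called.

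Desmosomes, the spot junctions that tie keratins of neighbouring cells together, set the lines apart in the same way. Among genes listed for both lines, the largest difference towards FADU was that of PPL, periplakin, with 512 and 485 in FADU against 0 and 1 reads in BFTC909. On the log2(value + 1) scale this was 8.93 ± 0.071 (adjusted p = 5.82e-12, limma, Benjamini-Hochberg), a number that depends on the pseudocount of 1. DSP, desmoplakin, which links desmosomes to keratin, stood at 1559 and 1607 in FADU and 36.8 and 36.3 in BFTC909 (difference 5.40 ± 0.040). The desmosomal cadherins DSC3 (251 and 267), DSG3 (97.5 and 105) and DSC2 (80.6 and 83), the plaque proteins JUP (285 and 244) and PKP2 (147 and 144) and envoplakin EVPL (117 and 96.8) were listed for FADU only. BFTC909 had DSG2 at 141 and 136, lower than in FADU (557 and 576), and PKP4 was higher there, at 103 and 94.6 in FADU and 236 and 240.2 in BFTC909. In all, 5 of 7 tested desmosome genes were higher in FADU, 1 in BFTC909, and 7 more were listed for FADU only.

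Hemidesmosome genes had calls in both directions. Integrin beta 4 (ITGB4), their defining chain, stood at 499 and 434 and was listed for FADU alone, and its partner ITGA6 stood at 369 and 402 in FADU and 132 and 135 in BFTC909. COL17A1, the transmembrane collagen of hemidesmosomes, stood at 298 and 287 in FADU and 13.1 and 14.2 in BFTC909 (difference 4.33 ± 0.054). BCAM, a laminin receptor, stood at 157 and 146 in FADU and 0.358 and 0.293 in BFTC909 (difference 6.85 ± 0.086, adjusted p = 3.98e-11 by limma with Benjamini-Hochberg adjustment). Among laminin chains, ligands of these receptors, LAMA3 (90.3 and 97.2 in FADU and 22 and 21.6 in BFTC909) was higher in FADU and LAMB3 (173 and 171 in FADU and 188 and 186 in BFTC909) was not called. Plectin (PLEC) and dystonin (DST), which also serve other cell types, were not called, and COL7A1, the anchoring fibril collagen, was higher in BFTC909 at 123 and 131 in FADU and 311 and 297 in BFTC909. Of 10 genes tested, 5 were higher in FADU and 1 in BFTC909, against 19.1% and 12.2% of all tested genes, with a median of 0.87.

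**Figure D2:**
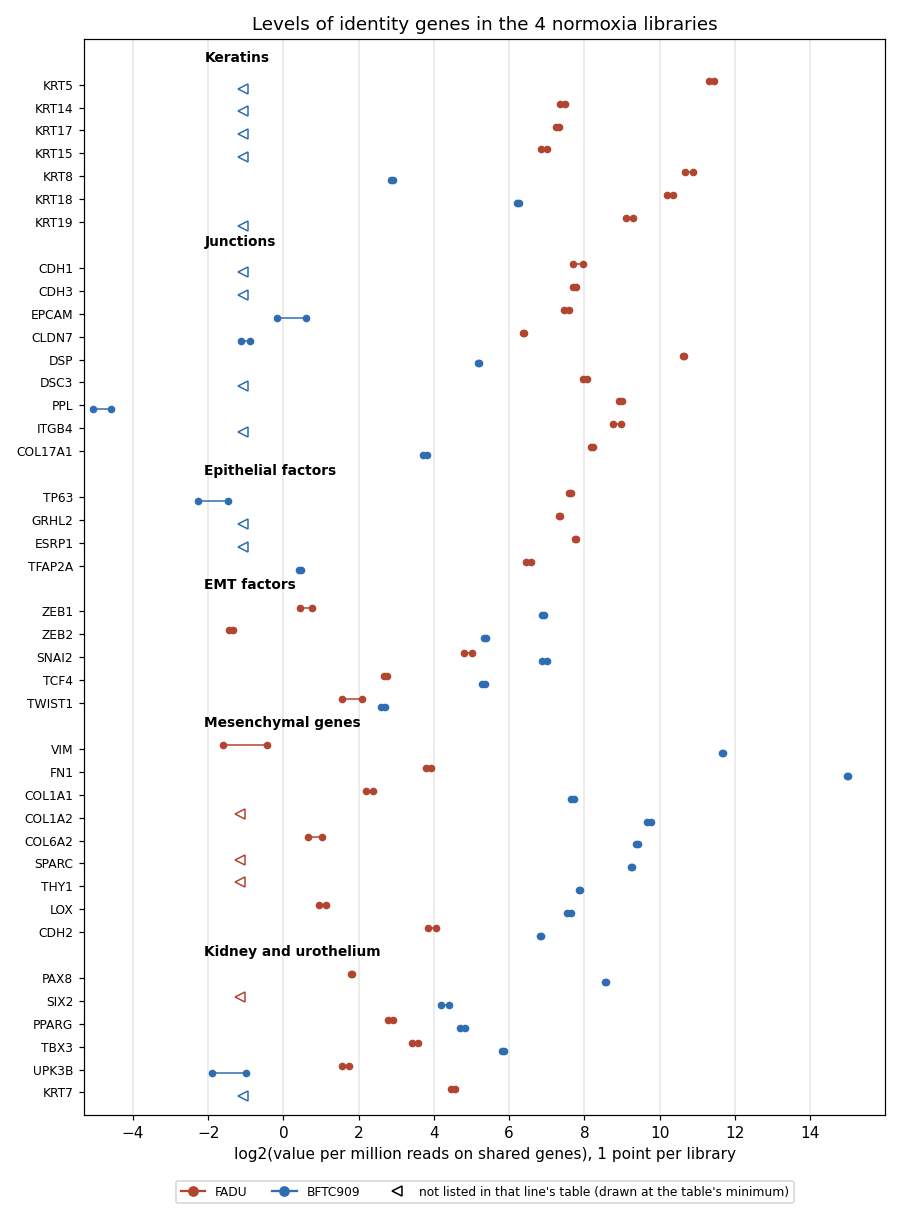
Normoxia level (x axis, log2 of the rescaled value) of genes that mark squamous, epithelial, mesenchymal, renal and urothelial cells, 1 point per library in red for FADU and blue for BFTC909, with a library at 0 drawn at the left edge and an open triangle at the table's minimum where a gene was not listed for that line. The keratin and junction genes lie further right in FADU, with KRT8 at 1888 and 1626 against 7.2 and 7.53, and the mesenchymal genes further right in BFTC909, with VIM at 3227 and 3296 against 0.328 and 0.741.

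Transcription factors of squamous cells were present in FADU at moderate levels. TP63, the basal cell regulator, stood at 193 and 200.4 in FADU and 0.358 and 0.209 in BFTC909, a difference of 7.27 ± 0.088 (adjusted p = 3.27e-11, limma, Benjamini-Hochberg). TFAP2A, active in surface epithelium, stood at 95.1 and 86.9 in FADU and 1.34 and 1.38 in BFTC909. GRHL2 (163 and 161), a guardian of epithelial genes, the splicing factor ESRP1 (218 and 216), SOX15 (36.1 and 35) and SOX2 (11.4 and 9.67), a gene often amplified in squamous cancers, were listed for FADU only. Of 10 such factors tested, 6 were higher in FADU and none in BFTC909 (median 1.36), and 14 were listed for FADU only. SFN, the 14-3-3 sigma protein of keratinocytes, stood at 227 and 225 in FADU and 0.849 and 0.46 in BFTC909.

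Much of the terminal programme of squamous cells was listed for neither line. IVL, LORICRIN and the SPRR genes, parts of the cornified layer, were listed for neither line, and nor were SERPINB3 and SERPINB4. The kallikreins KLK5 (87.5 and 81.5), KLK6 (108 and 110.2) and KLK10 (69.3 and 66.9), proteases of shedding skin, were listed for FADU only. TGM1, which cross-links the cornified layer, was higher in FADU but low, at 8.87 and 9.58 in FADU and 0.402 and 0.335 in BFTC909. The only gene of the 32 in this list that was higher in BFTC909 was FLG, filaggrin, at 3.12 and 3.14 in FADU and 88.7 and 85.4 in BFTC909. So 14 of the 32 were listed only for FADU, 16 for neither, and the 2 tested ones went in opposite directions.

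The squamous label of FADU is thus borne by its markers. Of the 13 fixed squamous markers 8 were listed for FADU only, TP63 and SFN were higher there, PKP1 (40.9 and 37.9 in FADU and 32.3 and 34.9 in BFTC909) was not called, and IVL and SPRR1B were listed for neither line.

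BFTC909 carried few markers of the epithelium it is named for. The uroplakins UPK1A, UPK1B and UPK3A and keratin 20 were listed for neither line, and UPK2 was listed for FADU only at 1.85 and 1.26. FOXA1 was listed for FADU only, at 47.8 and 31.3. PPARG, a nuclear receptor of urothelial differentiation, was higher in BFTC909, at 6.82 and 7.58 in FADU and 28.2 and 25.9 in BFTC909 (difference -1.77 ± 0.090). TBX3, a T-box factor of the urothelium and many other tissues, was higher there too, at 10.6 and 11.9 in FADU and 57.9 and 55.6 in BFTC909. GATA3 stood at 40.6 and 2.13 in FADU and 0.849 and 0.711 in BFTC909; the call of higher in FADU rested on replicate 1, and without that library the difference fell from 2.68 to 0.82 and was no longer called. FGFR3, a growth factor receptor often mutated in urothelial cancer, was higher in FADU, at 40.4 and 38.3 in FADU and 1.61 and 1.67 in BFTC909. Of the 11 fixed urothelial markers, 4 were listed for neither line, 3 for FADU only, and of the 4 tested 2 were higher in each line. The FADU calls included that of GATA3, which rested on replicate 1. The other tested markers beside PPARG, the uroplakin UPK3B and PSCA, were called in opposite directions. On these markers the urothelial name of BFTC909 finds little backing in its RNA, and the line is called by its name only.

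One renal factor was prominent in BFTC909. PAX8, a transcription factor of the kidney tubule and its precursors, stood at 3.53 and 3.48 in FADU and 383 and 376 in BFTC909, a difference of -6.40 ± 0.053 (adjusted p = 7.09e-12, limma, Benjamini-Hochberg). Other defining genes of the tubule, PAX2, CDH16, UMOD and AQP2, were listed for neither line. CUBN, the endocytic receptor cubilin, stood at 0.37 and 0.61 in FADU and 2.64 and 3.22 in BFTC909, and the nephron progenitor factor SIX2 at 21.2 and 18.2 for BFTC909 only. WT1, which acts in the early kidney and in mesothelium, stood at 5.58 and 5.92 in FADU and 15.6 and 15.4 in BFTC909. Of 29 renal genes, 18 were listed for neither line, 3 for FADU only and 3 for BFTC909 only. Of the 4 tested, 3 were higher in BFTC909 and 1, EYA1 (4.39 and 3.83 in FADU and 0.402 and 0.544 in BFTC909), in FADU, against 12.2% and 19.1% of all tested genes. AQP3, a water channel of the collecting duct and of squamous epithelia, was among those listed for FADU only, at 307 and 300.3.

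Mesenchymal genes made up the other side of the contrast. VIM, vimentin, stood at 0.328 and 0.741 in FADU and 3227 and 3296 in BFTC909, a difference of -11.07 ± 0.10 (adjusted p = 1.11e-11, limma, Benjamini-Hochberg), the largest towards BFTC909 among genes listed for both lines. FN1, fibronectin, stood at 15.2 and 13.8 in FADU and 32294 and 33067 in BFTC909, a difference of -11.04 ± 0.053. VIM was thus below 1 in both FADU libraries, while FN1 was low there but well measured. The collagen VI chains COL6A1 (8.01 and 7.49 in FADU and 643 and 654 in BFTC909) and COL6A2 (2.05 and 1.57 in FADU and 664 and 686 in BFTC909) were higher in BFTC909, and COL6A3 (731 and 763), COL1A2 (805 and 880.0), SPARC (603 and 617) and THY1 (232 and 237) were listed there only. CDH2, N-cadherin, stood at 14.4 and 16.6 in FADU and 112 and 114 in BFTC909. Of 27 mesenchymal genes tested, 23 were higher in BFTC909 and 1 in FADU, with a median of -3.72, and 10 more were listed for BFTC909 only. The exception was CAV1, caveolin, at 1001 and 974 in FADU and 284 and 292 in BFTC909. COL3A1 stood at 20.1 and 0.0436 in FADU and 7.65 and 9.25 in BFTC909 and was not called. Its difference was -3.17 without FADU replicate 1 and 1.16 without FADU replicate 2, so its direction depended on the replicate kept. Within the list, the smooth muscle genes ACTA2 (11.7 and 11.5 in BFTC909) and TAGLN (8.54 and 8.54) were low beside VIM, and the fibroblast genes DCN and PDGFRA were listed for neither line.

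Other genes with very large differences towards BFTC909 had varied roles. TGM2, tissue transglutaminase, which cross-links matrix proteins, stood at 1.48 and 1.44 in FADU and 899 and 888 in BFTC909 (difference -8.51 ± 0.050). FLNC, a filamin of muscle that binds actin, stood at 2.79 and 2.27 in FADU and 940.2 and 941 in BFTC909, and VCAN, the matrix proteoglycan versican, at 3.24 and 2.92 in FADU and 462 and 467 in BFTC909. INHBA, the subunit of activin A, stood at 0.205 and 0.305 in FADU and 273 and 259.8 in BFTC909 (difference -7.74 ± 0.080). ABI3BP, a matrix protein, stood at 1.36 and 1.13 in FADU and 295 and 287 in BFTC909. The membrane peptidase ANPEP stood at 0.287 and 0.348 in FADU and 170.5 and 167 in BFTC909, and MAP1B, a microtubule protein of neurons, at 15.6 and 16.4 in FADU and 1868 and 1845 in BFTC909. These genes were all below 20 in both FADU libraries. GPR176 (0.616 and 0.479 in FADU and 131 and 139 in BFTC909), QPRT (2.01 and 0 in FADU and 202 and 207 in BFTC909), an enzyme of NAD synthesis, and TMEM178B (1.72 and 0.479 in FADU and 250.3 and 258 in BFTC909) also had differences of this size.

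The factors that drive the mesenchymal state were higher in BFTC909 in part. ZEB1 stood at 1.36 and 1.7 in FADU and 121 and 118 in BFTC909, a difference of -5.58 ± 0.089 (adjusted p = 1.24e-10, limma, Benjamini-Hochberg), and ZEB2 at 0.37 and 0.392 in FADU and 41.4 and 40.3 in BFTC909, a difference of -4.92 ± 0.10. SNAI2, which also acts in basal epithelial cells, stood at 32.1 and 27.7 in FADU and 129 and 118 in BFTC909. SNAI1 was low in both lines, at 1.36 and 1.05 in FADU and 4.74 and 6.69 in BFTC909. TWIST1 (4.27 and 2.96 in FADU and 6.44 and 5.98 in BFTC909) and TWIST2 (4.89 and 4.75 in FADU and 3.22 and 3.81 in BFTC909) were not called. In all, 6 of 11 tested factors were higher in BFTC909 and none in FADU (median -1.47). The SNAI2 difference was -2.01 in normoxia and -0.49 in hypoxia (-1.52 between them, adjusted p = 6.39e-08, limma interaction, Benjamini-Hochberg).

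**Figure D3:**
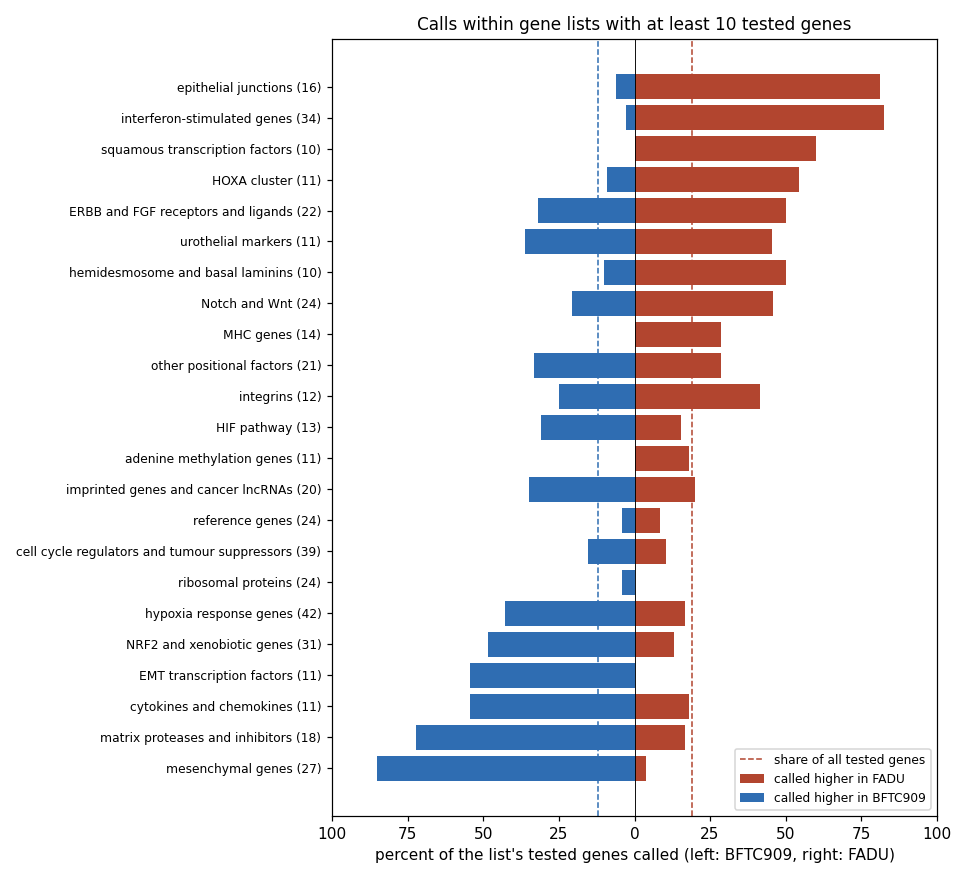
Percent of the tested genes of each list (x axis, number tested in brackets) called higher in FADU (red, to the right) or in BFTC909 (blue, to the left), for lists with at least 10 tested genes, with dashed lines at 19.1% and 12.2%, the shares over all tested genes. The junction and interferon lists reach furthest right, with 13 of 16 and 28 of 34 genes higher in FADU, and the mesenchymal list furthest left, with 23 of 27 higher in BFTC909.

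Homeobox genes of the HOX clusters are expressed by body position in normal development. The lines differed in them, and whether these differences reflect the site of origin was not tested. HOXC genes favoured FADU, where HOXC10 stood at 10.3 and 10.8 in FADU and 0.671 and 0.586 in BFTC909, HOXC8 at 11 and 10.2 in FADU and 1.07 and 1.34 in BFTC909 and HOXC6 at 10.5 and 9.71 in FADU and 1.12 and 1.34 in BFTC909. All 6 HOXC genes tested were higher in FADU, with a median of 1.99, and HOXC4 and HOXC5 were listed for FADU only. In the HOXA cluster 6 of 11 were higher in FADU, with HOXA7 at 17.9 and 14.1 in FADU and 1.16 and 0.962 in BFTC909 and HOXA9 at 9.94 and 11.2 in FADU and 0.671 and 0.753 in BFTC909, and 1 in BFTC909, HOXA13, the last gene of the cluster, at 0.78 and 0.392 in FADU and 3.53 and 4.02 in BFTC909. HOXB ran the other way where it was called, with HOXB2 at 3.78 and 3.88 in FADU and 36.4 and 38.2 in BFTC909, HOXB9 at 2.63 and 3.27 in FADU and 13 and 13 in BFTC909 and HOXB4 at 8.05 and 8.15 in FADU and 18.9 and 20.1 in BFTC909. The other 4 tested HOXB genes were not called. HOXD10 (17.1 and 17.7) and HOXD11 (4.35 and 5.14) were listed for FADU only and HOXD3 (3.31 and 3.43) and HOXD4 (0.626 and 0.753) for BFTC909 only. Of the 3 tested HOXD genes, HOXD9 (7.39 and 7.75 in FADU and 3.8 and 2.76 in BFTC909) was higher in FADU, a call lost with TMM factors, HOXD8 (3.57 and 4.18 in FADU and 9.52 and 10.3 in BFTC909) was higher in BFTC909 and HOXD13 (3.0 and 3.01 in FADU and 2.15 and 2.64 in BFTC909) was not called. Most HOX values lay below 25, and antisense transcripts overlap the clusters. The antisense RNA HOXA-AS2 stood at 9.61 and 10.9 in FADU and 0.536 and 0.377 in BFTC909, and whether reads were counted by strand is not given in the sources used here, so such pairs cannot be told apart.

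**Figure D4:**
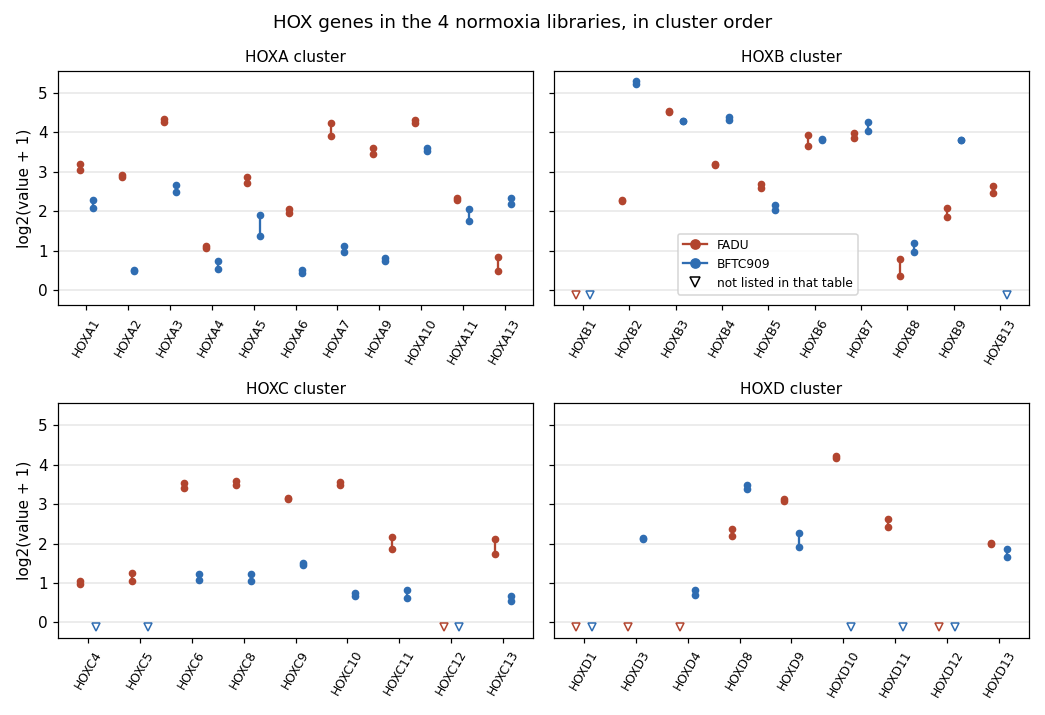
Normoxia level, log2(value + 1), of each HOX gene (y axis) in cluster order (x axis), 1 point per library in red for FADU and blue for BFTC909, with open triangles for genes not listed for a line. The tested HOXC genes are all higher in FADU, and HOXB2 (36.4 and 38.2 against 3.78 and 3.88) and HOXA13 (3.53 and 4.02 against 0.78 and 0.392) are higher in BFTC909.

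Other positional factors separated the lines as well. PAX9, a factor of the pharyngeal pouches and oral epithelium, stood at 73.2 and 76.8 in FADU and 2.64 and 2.97 in BFTC909, a difference of 4.32 ± 0.083. IRX2 stood at 64.4 and 60.2 in FADU and 8.09 and 8.41 in BFTC909 and IRX4 at 39.3 and 39.2 for FADU only. The T-box factors TBX18 (32.3 and 30.6), known from the mesenchyme of the ureter, and TBX20 (12.3 and 12.2) were listed for BFTC909 only, and TBX15 stood at 0.452 and 0.828 in FADU and 12.3 and 13.3 in BFTC909. PBX3, a cofactor of HOX proteins, stood at 8.29 and 7.06 in FADU and 112 and 114 in BFTC909. Of 21 tested, 6 were higher in FADU and 7 in BFTC909, against 19.1% and 12.2% of all tested genes, with a median of 0.56. A further 8 were listed for FADU only and 6 for BFTC909 only. The members of the list thus split by gene. SIX4 was called by a small margin and was no longer called with TMM factors.

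Receptors on the cell surface fell into 2 sets. FADU was higher in EGFR (1145 and 1172 in FADU and 377 and 382 in BFTC909), the receptor of epidermal growth factor, in ERBB2 (116 and 107 in FADU and 9.52 and 9.12 in BFTC909) and in FGFR2 (33.3 and 35.4 in FADU and 2.73 and 3.01 in BFTC909) and DDR1 (156 and 154 in FADU and 9.3 and 10.5 in BFTC909), while ERBB3 (61.2 and 54.7) and MST1R (55.3 and 57.5) were listed there only. BFTC909 was higher in FGFR1 (5.34 and 5.18 in FADU and 101 and 98.3 in BFTC909), in MET (200.4 and 215 in FADU and 484 and 481 in BFTC909), the receptor of hepatocyte growth factor, and in AXL (296 and 306 in FADU and 927 and 932 in BFTC909). The collagen receptor DDR2 (1.56 and 1.79 in FADU and 216 and 219 in BFTC909) mirrored DDR1. Among ligands, EREG, epiregulin, stood at 197 and 199.6 in FADU and 1.25 and 1.59 in BFTC909 (difference 6.37 ± 0.083, adjusted p = 4.84e-11, limma, Benjamini-Hochberg), and TGFA (57.1 and 61.5) and AREG (5.71 and 5.01, which shares reads with a copy, AREGB) were listed for FADU only. NRG1, the ligand of ERBB3, was higher in BFTC909 at 57.9 and 59 in FADU and 213 and 209 in BFTC909, and FGF5 (24.1 and 23.4) was listed there only. Of 22 genes tested, 11 were higher in FADU and 7 in BFTC909, against 19.1% and 12.2% of all tested genes.

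Notch and Wnt components followed a similar split. NOTCH1 (295 and 258 in FADU and 22.4 and 22.2 in BFTC909) and NOTCH3 (72.4 and 61.5 in FADU and 2.06 and 1.42 in BFTC909), receptors active in stratified epithelia, were higher in FADU, as were the ligands DLL1 (28.5 and 29.9 in FADU and 0.224 and 0.293 in BFTC909) and JAG1 (78.9 and 82.1 in FADU and 33.1 and 35.1 in BFTC909). NOTCH2 (473 and 493 in FADU and 539 and 549.9 in BFTC909) was not called. Wnt ligands of the noncanonical kind were higher in BFTC909, with WNT5A at 2.01 and 1.83 in FADU and 125 and 122 in BFTC909 and WNT5B at 0.452 and 0.479 in FADU and 86.1 and 81.3 in BFTC909. WNT7A (28.9 and 28.4) and WNT10A (8.66 and 8.23) were listed for FADU only. The secreted DKK1, a Wnt antagonist, stood at 47.7 and 50.1 in FADU and 2.06 and 1.38 in BFTC909, whereas its relative DKK3 stood at 7.35 and 8.41 in FADU and 480.2 and 497 in BFTC909. Of 24 tested, 11 were higher in FADU and 5 in BFTC909, against 19.1% and 12.2% of all tested genes. A further 12 were listed for FADU only and 3 for BFTC909 only. WNT7B was no longer called with TMM factors.

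Integrins, the matrix receptors, differed by chain. ITGA2, a collagen receptor chain, stood at 84.4 and 86.6 in FADU against 3 and 0 reads in BFTC909. ITGB6 (26.8 and 27.1 in FADU and 3.44 and 3.14 in BFTC909) and ITGB8 (61.8 and 65.4 in FADU and 1.88 and 2.72 in BFTC909), partners of the alpha V chain, were higher in FADU. The alpha V chain itself, ITGAV, was higher in BFTC909 (95.5 and 101 in FADU and 297 and 296 in BFTC909) with its partner ITGB5 (24.4 and 22.1 in FADU and 78.1 and 86.2 in BFTC909), and ITGB3 (99.6 and 96.1) was listed there only. ITGA5, the fibronectin receptor chain, stood at 32.2 and 31.9 in FADU and 90.1 and 90.5 in BFTC909, and ITGA3 (587 and 554 in FADU and 513 and 511 in BFTC909) and ITGB1 (509.9 and 526 in FADU and 860.2 and 851 in BFTC909) were not called.

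Proteases that remodel matrix were split by family. The secreted collagenases and stromelysins MMP1 (46.4 and 48), MMP10 (13.7 and 14.9) and MMP13 (21.7 and 26.4), neighbours on chromosome 11, were listed for FADU only. MMP14, the membrane collagenase, stood at 106 and 105 in FADU and 426 and 433 in BFTC909 and MMP2, the gelatinase it activates, at 2.87 and 2.13 in FADU and 47.5 and 50.8 in BFTC909. ADAM12 stood at 4.15 and 3.83 in FADU and 434 and 442 in BFTC909, a difference of -6.46 ± 0.055, and ADAMTS1 at 3.0 and 3.27 in FADU and 282 and 288 in BFTC909. The inhibitor TIMP3 stood at 4.07 and 3.27 in FADU and 264 and 265 in BFTC909. Of 18 tested, 13 were higher in BFTC909 and 3 in FADU (median -2.14), against 12.2% and 19.1% of all tested genes. A further 6 were listed for FADU only, among them maspin, SERPINB5 (40.3 and 41.6). Of the calcium-binding S100 proteins, S100A2 (339 and 349 in FADU and 26.9 and 28.2 in BFTC909) and S100A16 (99.8 and 90 in FADU and 10.8 and 10 in BFTC909) were higher in FADU and S100A14 (78.1 and 76.2) was listed there only, whereas S100A6 (86 and 94.3 in FADU and 272 and 269 in BFTC909) was higher in BFTC909.

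Genes of xenobiotic and oxidative defence, many of them targets of the factor NRF2, were more often higher in BFTC909. Of 31 tested, 15 were higher there and 4 in FADU (median -0.80), against 12.2% and 19.1% of all tested genes. HMOX1, heme oxygenase, stood at 11.1 and 10.4 in FADU and 184 and 188 in BFTC909. The aldo-keto reductases AKR1B1 (76.4 and 82.7 in FADU and 1116 and 1147 in BFTC909), AKR1C1 (6.98 and 6.88 in FADU and 116 and 117 in BFTC909) and AKR1C3 (1.07 and 0.61 in FADU and 41.6 and 41.5 in BFTC909) were higher in BFTC909, with reads that near-identical copies may share. The classic target NQO1 stood at 295 and 305 in FADU and 507 and 519 in BFTC909 and was not called. FADU was higher in GSTP1, a glutathione transferase, at 915 and 867 in FADU and 102 and 100.1 in BFTC909, and in ALDH1A3, an aldehyde dehydrogenase that makes retinoic acid, at 648 and 704 in FADU and 10.9 and 10.7 in BFTC909 (difference 5.84 ± 0.052). ALDH3A1 (74.5 and 68.1) was listed for FADU only. The list therefore did not move as a block.

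Interferon-stimulated genes were higher in FADU nearly throughout. These genes are switched on by interferon through factors such as STAT2 and IRF9 and block viruses. SAMD9 stood at 194 and 211 in FADU and 1.21 and 1.13 in BFTC909, a difference of 6.55 ± 0.075 (adjusted p = 2.60e-11, limma, Benjamini-Hochberg). DDX60, a helper of RNA sensors, stood at 105 and 114 in FADU and 3.26 and 4.35 in BFTC909, and IFI44 at 95.9 and 100.3 in FADU and 9.52 and 8.03 in BFTC909. OASL stood at 49.1 and 49 in FADU and had 0 reads in either BFTC909 library. IFITM3 stood at 122 and 121 in FADU and 11.5 and 10.1 in BFTC909, OAS3 at 149 and 147 in FADU and 18.7 and 18.6 in BFTC909 and the RNA sensor RIGI at 44.4 and 45.2 in FADU and 6.39 and 7.32 in BFTC909. In total 28 of 34 tested genes were higher in FADU and 1 in BFTC909, with a median of 2.22 against 0.19 over all tested genes, and the count was 28 in hypoxia too. The exception was XAF1, at 1.27 and 1.26 in FADU and 20.4 and 18.9 in BFTC909. STAT2 (53.1 and 55.8 in FADU and 22.8 and 21.3 in BFTC909), 1 of the factors that control these genes, was higher in FADU, and IRF9 (3.86 and 3.27 in FADU and 1.43 and 1.3 in BFTC909) was not called. IFIT and IFITM genes have close copies that may share reads.

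Antigen presentation genes had few calls. HLA-C stood at 318 and 326 in FADU and 59.6 and 61.8 in BFTC909 and HLA-E at 152 and 149 in FADU and 44.2 and 44.7 in BFTC909, while HLA-B (37.9 and 41.6 in FADU and 27.9 and 29.4 in BFTC909) and B2M (401 and 422 in FADU and 428 and 421 in BFTC909), the light chain of class I, were not called. Of 14 tested, 4 were higher in FADU and none in BFTC909 in normoxia, against 19.1% and 12.2% of all tested genes. In hypoxia 4 were higher in FADU and 1 in BFTC909. A further 2 were listed for FADU only and 1 for BFTC909 only. The HLA genes are close copies, so that the split of reads among them is uncertain.

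Cytokines were divided by gene. IL1A (40.4 and 41.1), IL1B (45.2 and 47) and CXCL8 (22.4 and 26), early inflammatory signals, were listed for FADU only, and IL18 (44.1 and 50.1 in FADU and 5.59 and 6.15 in BFTC909) was higher there. CSF1, the macrophage growth factor, stood at 7.1 and 9.32 in FADU and 89.1 and 91.1 in BFTC909, LIF at 15.2 and 15.9 in FADU and 50.5 and 52.6 in BFTC909 and IL6 at 0.78 and 0.958 in FADU and 4.87 and 5.4 in BFTC909, and the acute phase gene SAA1 (36 and 34.6) was listed for BFTC909 only. CXCL1 stood at 13.1 and 13 in FADU and 63.7 and 64.4 in BFTC909 in normoxia. In hypoxia its values were 10.5 and 11.2 in FADU and 9.1 and 9.62 in BFTC909, a difference of 0.19 that was not called (normoxia minus hypoxia -2.40, adjusted p = 1.87e-09, limma interaction, Benjamini-Hochberg). Of 11 tested, 6 were higher in BFTC909 and 2 in FADU, against 12.2% and 19.1% of all tested genes. A further 9 were listed for FADU only and 7 for BFTC909 only.

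Cancer-testis antigens, germ cell genes that tumours can switch on, were mostly unlisted. For 36 of 42, listed for neither line, the level is bounded and not measured. MAGEA4 (124 and 134, a member of a family of near-identical genes) and PRAME (38.1 and 36.8) were listed for FADU only. Oncofetal genes were measured in both lines: HMGA2 (52.3 and 52.8 in FADU and 222 and 218 in BFTC909) and IGF2BP3 (30.1 and 30.3 in FADU and 115 and 113 in BFTC909) were higher in BFTC909 and IGF2BP1 (55 and 55.4 in FADU and 24.6 and 22.2 in BFTC909) in FADU. Among imprinted genes and long noncoding RNAs, H19 (119 and 102) was listed for FADU only, PEG10 stood at 156 and 158 in FADU and 546 and 536 in BFTC909 and PLAGL1 at 73.3 and 73.6 in FADU and 17.5 and 18.9 in BFTC909. UCA1, a noncoding RNA first described in urothelial carcinoma, stood at 26.4 and 26.9 in FADU and 127 and 124 in BFTC909. In hypoxia it stood at 99.2 and 101 in FADU and 29.9 and 29 in BFTC909, higher in FADU (normoxia minus hypoxia -3.93, adjusted p = 4.67e-13, limma interaction, Benjamini-Hochberg). The nuclear RNA NEAT1 was higher in FADU (5055 and 5340.4 in FADU and 2141 and 2141 in BFTC909), and MALAT1 (16975 and 17396 in FADU and 13877 and 13656 in BFTC909) was not called.

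The differences were also read along the genome. Gene positions are those of GENCODE on GRCh37, the build called hg19 in the labels. Over runs of 25 neighbouring tested genes, the highest median, 2.16, lay on chromosome 11 around IGHMBP2 (chr11:67798084-70963623), where 16 genes were higher in FADU and 2 in BFTC909. This interval holds the 11q13 genes often amplified in head and neck cancer. CTTN, cortactin, stood at 3045 and 3154 in FADU and 391 and 398 in BFTC909 (difference 2.97 ± 0.045), PPFIA1 at 1596 and 1589 in FADU and 134 and 130.3 in BFTC909, FADD, an adapter of death receptors, at 155 and 153 in FADU and 31.6 and 32.9 in BFTC909, and SHANK2 at 279 and 262 in FADU and 1.34 and 1.67 in BFTC909. ANO1, a chloride channel, stood at 204 and 193 for FADU only. CCND1, cyclin D1, was higher in FADU (802 and 787 in FADU and 269.9 and 264 in BFTC909), by less than its neighbours. Of 8 genes of the region tested 7 were higher in FADU and 1, MYEOV (10.1 and 9.58 in FADU and 26.6 and 27.7 in BFTC909), in BFTC909. The median of all tested genes of chromosome 11 was 0.31. Further high windows lay on chromosome 22 around CERK (1.80, chr22:46449585-50656045, 19 genes higher in FADU and 0 in BFTC909) and on chromosome 14 around PSMC1 (1.69, chr14:83159048-92588261, 17 and 3), and chromosome 14 also had the highest median of any chromosome, 0.69. Copy number was not measured, and its part in these differences was not tested.

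The longest run of neighbours expressed in FADU and near or below the floor in BFTC909 (under 0.5) held 9 genes on chromosome 9 (chr9:21380072-23826335), from MIR31HG to ELAVL2. It contained CDKN2A (32.3 and 29) and CDKN2B (5.09 and 4.97), inhibitors of the cyclin D kinases, and MTAP (76.3 and 78.1), a housekeeping enzyme, all listed for FADU only. Just outside it, KLHL9 (42.7 and 47 in FADU and 48 and 48.5 in BFTC909) and FOCAD (43.4 and 48.9 in FADU and 67.1 and 71.3 in BFTC909) were measured in both lines and not called, and MLLT3 (3.9 and 3.88 in FADU and 1.03 and 1.51 in BFTC909) was higher in FADU, a call lost with TMM factors. In total 24 runs of at least 4 such neighbours, 113 genes, were expressed in FADU and 4 runs, 19 genes, in BFTC909. A gene not listed for a line counted as under 0.5 there, and 3579 genes were listed for FADU only against 1306 for BFTC909 only. The FADU run of 4 genes from ABCG1 to PDE9A included TFF1, at 25.9 and 0 in the FADU replicates. Several FADU runs were gene families, such as KRT7 to KRT4 (chr12:52626304-53207900) and KRT13 to KRT17 (chr17:39657233-39781094), both described above. A BFTC909 run on the X chromosome (chrX:56755674-57936892) held NBDY, SPIN3, SPIN2B, ZXDB and ZXDA.

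On chromosome 18 the reverse was seen over a short stretch. SMAD4, the shared mediator of TGF-beta signals, stood at 0.985 and 0 in FADU and 52.3 and 50 in BFTC909, a difference of -5.21 ± 0.26 (adjusted p = 1.07e-07, limma, Benjamini-Hochberg). Its neighbours ME2 (0.616 and 0 in FADU and 62 and 65.1 in BFTC909) and MEX3C (1.19 and 0 in FADU and 50.7 and 50.7 in BFTC909) were at or near 0 in FADU as well, and ELAC1 (1.88 and 2.43) was listed for BFTC909 only. The few reads of SMAD4, ME2 and MEX3C in FADU normoxia were all in replicate 1. Nearby, MBD1 (31.1 and 27.6 in FADU and 33.2 and 33.1 in BFTC909) and SMAD2 (94.5 and 103 in FADU and 122 and 119 in BFTC909) were not called. Of 8 tested genes of the region 4 were higher in BFTC909 and none in FADU. Other windows with low medians lay on chromosome 6 around FOXP4 (-2.05, chr6:37598455-42185599, 16 genes higher in BFTC909 and 3 in FADU) and at the start of chromosome 1 around AURKAIP1 (-1.63, chr1:955500-1590473, 21 genes and 1).

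Of 39 tested cell cycle genes and tumour suppressors, 4 were higher in FADU and 6 in BFTC909, against 19.1% and 12.2% of all tested genes, with a median of -0.08. MYC (180.3 and 166 in FADU and 121 and 122 in BFTC909) and E2F1 (49 and 46.6 in FADU and 50.1 and 50 in BFTC909) were not called. The cyclin D genes differed by member: CCND1 was higher in FADU, CCND2 (372 and 394) was listed for FADU only, and CCND3 (26 and 23.4 in FADU and 319 and 329.5 in BFTC909) was higher in BFTC909. Their kinase CDK6 was higher in BFTC909 (183 and 181 in FADU and 608 and 615 in BFTC909) and CDK4 (111 and 115 in FADU and 156 and 157 in BFTC909) was not called.

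Oxygen sensing genes were examined because the study is about hypoxia. HIF1A, the oxygen-regulated subunit of HIF-1, stood at 202 and 193 in FADU and 639.6 and 634 in BFTC909, a difference of -1.69 ± 0.041 (adjusted p = 1.32e-09, limma, Benjamini-Hochberg), and EPAS1, that of HIF-2, at 71 and 65.9 in FADU and 202 and 201 in BFTC909. Both subunits are controlled mainly as proteins, which were not measured. The prolyl hydroxylases that mark them went in opposite directions, with EGLN1 at 33.3 and 32.7 in FADU and 135 and 137 in BFTC909 and EGLN3 at 19.7 and 22.6 in FADU and 2.19 and 2.55 in BFTC909. The coactivator EP300 stood at 589 and 552 in FADU and 149 and 149 in BFTC909, and VHL (61.9 and 58.9 in FADU and 45.2 and 43.7 in BFTC909) and ARNT (50.1 and 46.5 in FADU and 35 and 37.8 in BFTC909) were not called.

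Among 42 tested genes that respond to hypoxia, 18 were higher in BFTC909 and 7 in FADU in normoxia (median -0.74). The shares over all tested genes were 12.2% and 19.1%. In hypoxia 8 were higher in BFTC909 and 5 in FADU (median -0.40), against 11.7% and 18.9% of all tested genes. PGK1 (247 and 246 in FADU and 765 and 787 in BFTC909), LDHA (824 and 841 in FADU and 2203 and 2214 in BFTC909) and HK1 (98.5 and 98.9 in FADU and 509 and 506 in BFTC909), enzymes of sugar breakdown, and BNIP3 (14.2 and 15 in FADU and 97.1 and 97.8 in BFTC909), a mitophagy receptor, were higher in BFTC909. CA12, a carbonic anhydrase, stood at 5.95 and 0.0436 in FADU and 322 and 332 in BFTC909, and the value of FADU lay in replicate 1. SLC2A1, the glucose transporter (367 and 343 in FADU and 88.3 and 96 in BFTC909), ALDOC (29.9 and 31 in FADU and 1.43 and 1.05 in BFTC909) and VEGFA (234 and 241 in FADU and 70.1 and 83.6 in BFTC909), the vascular growth factor, were higher in FADU. VEGFA stood in hypoxia at 178 and 189.9 in FADU and 435 and 427 in BFTC909, the reverse order (normoxia minus hypoxia 2.85, adjusted p = 1.31e-10, limma interaction, Benjamini-Hochberg). PFKFB4, which raises glycolysis, stood at 7.56 and 9.45 in FADU and 65.4 and 65.8 in BFTC909 in normoxia and at 60.3 and 63.6 and 40.3 and 41.5 in hypoxia, with differences of -2.82 and 0.59 (-3.40 between them, adjusted p = 1.87e-10, limma interaction, Benjamini-Hochberg).

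Genes of adenine methylation, the subject of the study, were compared next. METTL4, the enzyme of the study, stood at 31.5 and 30 in FADU and 20.7 and 18.8 in BFTC909, a difference of 0.61 ± 0.073 below the 2-fold limit. ZMIZ1, the HIF coactivator of the study, stood at 84.5 and 74.1 in FADU and 145 and 145 in BFTC909, a difference of -0.87 ± 0.061, which passed 2-fold with TMM factors (-1.07). The RNA methyltransferases METTL3 (68.5 and 67.7 in FADU and 54 and 53.1 in BFTC909) and METTL14 (34.4 and 37.5 in FADU and 17.6 and 15.7 in BFTC909) stood side by side with a call for METTL14 only, lost with TMM factors, and ALKBH1, a demethylase, stood at 31.7 and 33.1 in FADU and 12.3 and 11.5 in BFTC909. Of 11 genes tested, 2 were higher in FADU and none in BFTC909, against 19.1% and 12.2% of all tested genes.

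Genes often used as references gave a second view of the scale. Of 24, 2 were higher in FADU, GUSB (70.7 and 68.1 in FADU and 20.9 and 21.3 in BFTC909) and POLR2A (453 and 429 in FADU and 163 and 164 in BFTC909), and 1 in BFTC909, ACTB (1893 and 1770.1 in FADU and 4484 and 4429 in BFTC909), with a median of 0.06. Of 24 ribosomal protein genes, 1 was called, RPS6 (413 and 444 in FADU and 1056 and 1095 in BFTC909), with a median of -0.22; with TMM factors RPL7 and RPL15 would be called as well. TBP (22.4 and 21.7 in FADU and 23.3 and 23.8 in BFTC909) and PPIA (1158 and 1102 in FADU and 1132 and 1151 in BFTC909) were near equal.

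Genes listed for 1 line only add to each list above. Of the 3579 genes of FADU alone, 1146 had a value of at least 1 in both normoxia libraries and 66 a value of at least 50, led by KRT5, KRT19, MIR205HG and ITGB4. Of the 1306 of BFTC909 alone, 497 reached 1 and 23 reached 50, led by IGFN1 (1641 and 1574), a gene known from muscle, COL1A2, COL6A3 and SPARC. CSPG4 (139 and 135), the proteoglycan NG2, and MFAP5 (164 and 164), a microfibril protein, were among them. These genes held 2.05% and 1.94% of the FADU reads and 0.930% and 0.939% of the BFTC909 reads. Most were low, with 2103 FADU-only and 716 BFTC909-only genes below 1 in both normoxia libraries.

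Other FADU cultures gave similar levels for the genes that lead the FADU side. FADU cells with a control vector, sequenced in a table of their own and also in normoxia, had 474 and 428 for PPL, 1726 and 1753 for KRT8 and 238 and 216 for TP63. PTGFRN (298 and 292 in FADU and 0.715 and 0.586 in BFTC909 in the compared libraries), ARHGAP29 (278 and 304 in FADU and 0.626 and 0.669 in BFTC909) and NUP210 (218 and 210.2 in FADU and 0.581 and 0.669 in BFTC909), a nuclear pore protein, were also among the largest differences towards FADU, and the control vector cells had 286 and 278, 299 and 290.1 and 211 and 227.

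The 2 FADU replicates differed more than counting error. Their chi-square per degree of freedom was 10.2, against 2.16 for BFTC909, and of all genes listed for FADU 131 were at least 2-fold higher in replicate 1 and 9 in replicate 2. Transcripts of luminal breast cells stood out in replicate 1. TFF1 stood at 25.9 and 0, GREB1 at 36.4 and 1.0, ESR1 at 16.5 and 2.92, AGR2 at 10.5 and 0.348 and GATA3 at 40.6 and 2.13 in FADU. The summed level of the 13 fixed breast luminal markers was 224 and 102 in FADU and 449 and 462 in BFTC909, where CA12 and STC2 made up most of it, and 6 of the 13 were listed for neither line. The mitochondrial rRNAs MT-RNR1 (177 and 0.871) and MT-RNR2 (351 and 1.61) moved with them. The source of these transcripts was not tested. Some calls were lost when replicate 1 was left out, and some when replicate 2 was left out, so such losses were not particular to replicate 1. The median difference of all tested genes was 0.198 without replicate 1 and 0.193 without replicate 2.

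Markers of immune and red blood cells were low in both lines. The immune markers summed to between 3.0 and 3.72 in the 4 libraries, 9 of the 12 being listed for neither line, and the red blood cell genes were listed for neither. The endothelial markers summed to 14.2 and 12.8 in FADU and 31.1 and 28.6 in BFTC909, with 1 tested gene higher in each line. The hepatocyte markers (7.6 and 5.92 in FADU and 1.12 and 1.09 in BFTC909) and melanocyte markers (4.19 and 4.44 in FADU and 3.67 and 3.97 in BFTC909) each had 1 gene higher in FADU. No neuronal marker was called. The fibroblast markers, by contrast, summed to 1268 and 1368 in BFTC909 and to 25.3 and 4.62 in FADU, with COL1A2, COL1A1 and THY1 high and DCN and PDGFRA listed for neither line. Whether fibroblasts had a part in the mesenchymal values was not tested.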

How the data were processed

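RNA was extracted with the RNeasy kit and made into ribosome-depleted, stranded libraries (KAPA), per the labels. The authors removed adapters by Trim Galore, placed reads on hg19 by HISAT2, assigned them to genes by htseq-count and normalized the counts in edgeR. The versions, the gene annotation and the strand setting of the counter are not given in the sources used here. The deposited signal values are counts scaled to 1000000 on TMM-normalized library sizes, as the authors deposited them in 1 table per line. Dividing by the value of 1 read gave whole reads for 100% of them, within 0.01 read. The authors' 4 comparison tables of fold changes and p-values were not used, and neither were 2 columns that match no sample in the labels.

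Genes in both tables were rescaled to a sum of 1000000 per library. Genes at 1 or more in at least 2 of the 4 libraries were tested with limma 3.58.1 (R 4.3.3; eBayes with trend) on log2(value + 1), a pseudocount of 1 that understates differences of low genes. A call needed 2-fold and a Benjamini-Hochberg adjusted p under 0.05 over all tested genes. The script was tested on simulated data. Alternatives used edgeR 4.0.16 and DESeq2 1.42.0 on whole reads, other scalings, pseudocounts and filters, single libraries left out, all 12 libraries of both tables (METTL4 knockdown included) and a replicate block. Normoxia and hypoxia were compared by an interaction term over 8 libraries, a test added after seeing the data. Replicate numbers are in the labels, and replicate differences of the lines correlated at -0.0331 across genes. That value cannot settle whether the numbers pair samples. No block entered the main test. Tables and plots were made in Python 3.11.15 with pandas 2.3.3, numpy 2.4.6, scipy 1.17.1 and matplotlib 3.10.9.

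The genes compared and the gene lists, written from general knowledge, were chosen with earlier results of these data known, and the microRNA hosts after their values were seen. Beside list genes, the text names, per direction, the 15 called genes with the largest difference whose libraries do not overlap and that reach 10 in both libraries of the higher line, and the 10 highest genes listed for 1 line only. Where a line had at most 3 reads of a gene in each library, reads are given. Some genes are not reported here.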

Additional observations from a re-analysis of the deposited data

Results flagged for a closer look

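The line difference of 9 of the 30 genes with the largest differences differed by at least 2-fold between normoxia and hypoxia. Each is given as the log2 difference, FADU minus BFTC909, in normoxia minus that in hypoxia, from a limma interaction over 8 libraries with Benjamini-Hochberg adjusted p. PPL differed by 2.35 (adjusted p = 5.96e-10), with 512 and 485 in FADU and 0 and 1 reads in BFTC909 in normoxia and 341 and 346 and 2.57 and 2.59 in hypoxia. TGM2 differed by -3.20 (adjusted p = 4.07e-11); in BFTC909 it stood at 899 and 888 in normoxia and 139 and 151 in hypoxia, and in FADU at 1.48 and 1.44 and 2.54 and 2.83. GPR176 differed by -2.13 (adjusted p = 5.66e-09), with BFTC909 at 131 and 139 in normoxia and 135 and 138 in hypoxia and FADU at 0.616 and 0.479 and at 5.8 and 5.9. ABI3BP differed by -1.48 (adjusted p = 9.26e-08) and FLNC by -1.02 (adjusted p = 9.35e-06). EREG differed by 1.25 (adjusted p = 4.56e-06), PTGFRN by 1.17 (adjusted p = 3.70e-07) and SFN by -1.01 (adjusted p = 0.000466). CA12 differed by 2.23 (adjusted p = 0.0266), where the FADU normoxia values were 5.95 and 0.0436 and the FADU hypoxia values 0.589 and 0.914, and BFTC909 stood at 322 and 332 in normoxia and 985 and 1003 in hypoxia. Over all tested genes, 776 (5.41%) had such a difference of at least 2-fold at an adjusted p under 0.05. The 30 genes were chosen by their normoxia difference, which this comparison also uses. That choice favours a smaller difference in hypoxia, so their share cannot be set against that of all genes. All 9 genes were called in the same direction at both oxygen levels.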

How the results depend on the processing

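The counts of 2733 genes higher in FADU and 1748 higher in BFTC909 stayed within 1.5 times under all scalings, filters and tools run. They moved further with a pseudocount of 5 (1683 higher in FADU; 1762 in the hypoxia contrast), when 1.3-fold at p under 0.05 without adjustment was enough (5989 and 3791) and at 4-fold (771 and 645). Genes of 1 table that reached 5 in both normoxia libraries in place of 1 numbered 428 for FADU and 183 for BFTC909. The share of calls higher in FADU was 61.0%, and 50% with TMM factors, 53.2% with centred libraries, 53.4% with edgeR and 51.5% with DESeq2.

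With single libraries left out, which leaves 1 library in an arm that is assumed to vary like the others, the normoxia counts ran from 2734 to 2763 for FADU and from 1727 to 1789 for BFTC909, and the hypoxia counts from 2710 to 2755 and from 1671 to 1692. The list counts moved by at most 1 gene. Of the 312 listed or named genes that were called, 4 were lost without FADU replicate 1 and 2 without its replicate 2, 3 without BFTC909 replicate 1 and 7 without its replicate 2. GATA3 was lost without FADU replicate 1, with all 12 libraries in 1 fit and in limma without the trend. A pseudocount of 5 lost 54 of them, TMM factors 14, DESeq2 11 and edgeR 9; the cause was not tested.

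The replicate number as a block gave 2735 and 1750 genes in normoxia and, in a check added after seeing the data, 2715 and 1678 in hypoxia; pairing changed no call of a listed gene. In hypoxia 46 of the 312 were no longer called, and 9 had the opposite sign: IL11 (0.27), VEGFA (-1.22), PFKFB4 (0.59), IGFBP3 (-0.23), CLDN1 (1.47), CXCL1 (0.19), ANGPTL4 (0.43), UCA1 (1.73) and MIR222HG (0.71); the cause was not tested. With 1 read worth 0.0411 to 0.0447, values under 1 rest on few reads.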
